A study of Mus musculus with 16 samples.

Results

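ISG15 is a small ubiquitin-like protein that cells attach to other proteins, a process called ISGylation. Uba7 is the activating enzyme (E1), Ube2l6 the conjugating enzyme (E2), Herc6 the main ISG15 ligase (E3) of the mouse, Trim25 a further ligase that also ubiquitinates the RNA sensor RIG-I, and Usp18 the protease that removes ISG15 and, apart from that, dampens signalling at the type I interferon receptor. These genes are classical interferon-stimulated genes, switched on by the transcription factor complex ISGF3 and by interferon regulatory factors such as IRF7. In bone, osteoclasts form from macrophages under the cytokine RANKL, and interferons are known to restrain that step. The 6 genes were chosen by name, with earlier results of these data known. They were found in all 16 libraries, among 19778 genes listed in both experiments. All 6 passed the authors' filter on low values in each experiment, among 10764 genes of the SREBP2 experiment and 10788 of the IRF7 experiment.

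The data were mRNA-seq read counts of bone marrow-derived macrophages (BMMs) from female mice, cultured for 3 days with M-CSF (23.3 ng/mL) and RANKL (40 ng/mL in the sample labels) or with M-CSF alone. In the SREBP2 experiment, SREBP2ΔM cells, in which Cre under the lysozyme M promoter (LysM-Cre) deletes Srebp2 in myeloid cells, were compared with LysM-Cre control cells that carry the same Cre and an intact Srebp2. In the IRF7 experiment, IRF7-deficient cells, which lack the gene in every cell type, were compared with C57BL/6 wild-type (WT) cells. Every combination of genotype and treatment had 2 libraries, so that there were 8 groups. RANKL-treated cells are called osteoclasts below and cells in M-CSF alone macrophages. The labels give no age for the mice of these libraries. The study's text calls the libraries of a group biological replicates, without saying whether they were separate mice or separate cultures. It also gives a higher RANKL dose for such cultures than the labels do. The p-values therefore measure the spread between libraries and no more.

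Library totals ran from 7703178 to 13387849 counts, at which 1 count was worth 0.0710 to 0.140 CPM (counts relative to library size, scaled by TMM). In the SREBP2 experiment the totals did not overlap between genotypes. They were 7703178 to 9752535 in SREBP2ΔM libraries and 10353042 to 13387849 in control libraries. In the IRF7 experiment they overlapped, at 9118102 to 11600404 in deficient and 8178505 to 12746916 in WT libraries. The part of depth in the genotype differences was not tested. Srebf2, the gene of SREBP2, had 0.132 to 0.966 CPM in SREBP2ΔM libraries against 233 to 282 CPM in LysM-Cre control libraries, and Irf7 had 0.326 to 2.12 CPM in IRF7-deficient libraries against 43.4 to 81.0 CPM in WT libraries, so both checks followed the labels. Summed over 10 osteoclast markers, the level was 32091 to 77225 CPM in osteoclasts against 81.5 to 149 CPM in macrophages, and all 10 rose with RANKL in each of the 4 genotypes. Of 7 interferon genes, 2 were listed in the SREBP2 experiment and 1 in the IRF7 experiment, at 0 to 0.0980 CPM in total. A pair of libraries stood apart from their partners in several of the 6 genes. The first was LysM-Cre control macrophages replicate 1, which was above replicate 2 by 1.5 (Isg15), 1.13 (Usp18) and 0.88 (Herc6) on the log2 scale, where the median size of that difference over all tested genes was 0.17. The second was IRF7-deficient osteoclasts replicate 2, which lay below replicate 1 by 1.30, 0.85 and 0.93 in the same genes, against a median size of 0.24. Irf7 itself differed likewise in the LysM-Cre control macrophages, at 115 CPM in replicate 1 and 44.9 CPM in replicate 2.

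The promoters are shown because the genes share a known regulator class and differ in response. RefSeq windows (GRCm38.p6) from 250 bases before to 50 bases after the start were matched for 5 of the 6 genes: Isg15, Uba7, Ube2l6, Herc6 and Trim25. They were searched on both strands for AANNGAAA, a core bound by interferon regulatory factors, and for GAAANNGAAA, the core of the interferon-stimulated response element, every match of which also holds the shorter one. The printed sequences run 5′ to 3′ on the strand of the gene, with matches to AANNGAAA on either strand in capitals. They cover chr4:156200819-156200968 (minus strand) and chr2:84798678-84798827 (plus strand), which are the 150 bases before the starts of Isg15 and Ube2l6, and 30 bases of Uba7 at chr9:107975529-107975558 (plus strand).
Isg15: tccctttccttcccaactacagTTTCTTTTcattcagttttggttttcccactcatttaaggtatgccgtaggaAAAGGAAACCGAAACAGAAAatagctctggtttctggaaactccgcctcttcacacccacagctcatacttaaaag
Uba7: actcagtctagTTTCACTTttggtttcctg
Ube2l6: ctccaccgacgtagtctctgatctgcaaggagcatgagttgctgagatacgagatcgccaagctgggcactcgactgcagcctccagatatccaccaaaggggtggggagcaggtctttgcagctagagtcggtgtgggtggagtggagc
Isg15 held 3 overlapping copies of GAAANNGAAA, between 78 and 57 bases before its start, of which all but the first 2 bases lie in the long run of capitals, and a further AANNGAAA on the other strand between 128 and 121 bases before it. Uba7 held 1 AANNGAAA, 27 to 20 bases before its RefSeq start, and Trim25 1 across its RefSeq start. These RefSeq starts lie 62 bases (Uba7) and 27 bases (Trim25) downstream of the gene starts in the files' annotation, so that both matches fall inside the annotated genes, whereas the starts of Isg15 and Ube2l6 are the same in both. The windows of Ube2l6 and Herc6 held no match to either motif. Of all 32851 windows, 3.44% held GAAANNGAAA and 23.9% held AANNGAAA. No member window held TCACNCCAC, a sterol regulatory element, which 1.24% of all windows held. These are matches of letters and were not set against binding data.

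In every group but WT macrophages, Trim25 and Ube2l6 were the most abundant of the 6 per kilobase of exon. Their group means were 28.1 to 35.5 and 24.0 to 60.2 CPM per kb. Lengths were those of the merged exons of all transcripts of a gene, and no other length was used. Isg15 followed at 7.89 to 26.5, and in WT macrophages it lay above Ube2l6 (26.5 against 24.0 CPM per kb). Usp18 and Uba7 overlapped at 1.24 to 6.07 and 3.93 to 6.30, and Herc6 was lowest at 0.819 to 1.64 CPM per kb. The 6 genes differed more in how far they varied. Over the 16 libraries the highest CPM was 9.63 times the lowest for Usp18 and 8.25 times for Isg15, 3.46 and 3.37 times for Ube2l6 and Herc6, 1.95 times for Uba7 and 1.40 times for Trim25. The lowest counts behind these values were 28 reads for Usp18 and 39 for Isg15, both in IRF7-deficient osteoclasts replicate 2, and 1243 for Trim25.

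**Figure D1:**
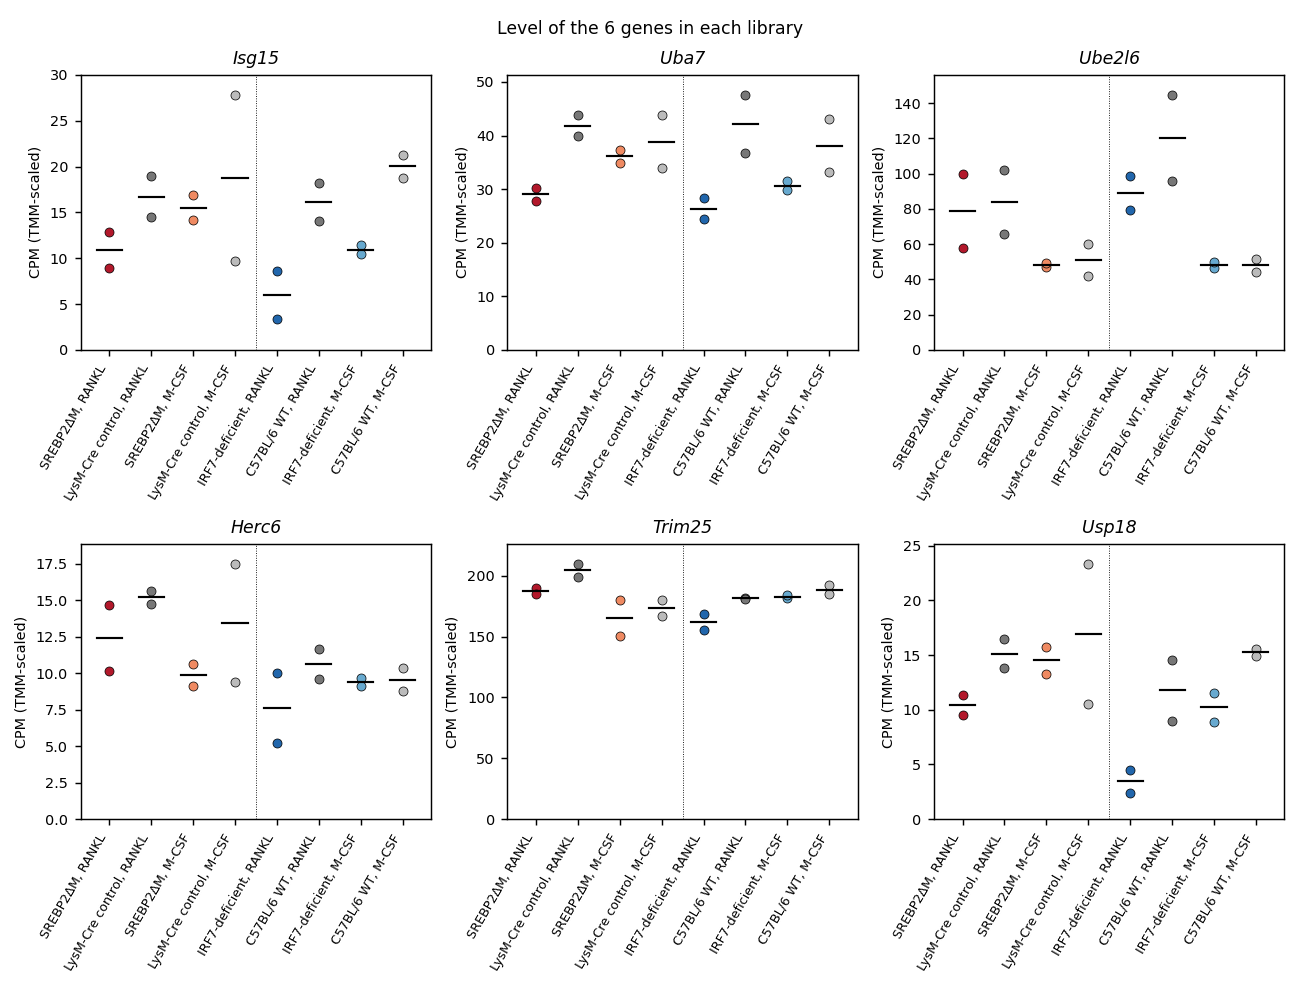
CPM (TMM-scaled, linear axes from 0) of each gene in the 16 libraries, with a point per library and a line at the mean of the 2 libraries of a group; the dotted line separates the SREBP2 experiment (left) from the IRF7 experiment (right). Isg15 and Usp18 are lowest in IRF7-deficient osteoclasts, at 3.37 and 8.56 CPM and at 2.42 and 4.51 CPM, while Ube2l6 is highest in WT osteoclasts, at 95.7 and 145 CPM.

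Isg15 (ENSMUSG00000035692, mm10 chromosome 4, 156199424 to 156200818, minus strand), the modifier itself, was lower in the IRF7-deficient than in the WT libraries under both treatments, without passing after adjustment. Its level was 8.56 and 3.37 CPM in IRF7-deficient osteoclasts against 14.1 and 18.2 CPM in WT osteoclasts. It was 10.5 and 11.4 CPM in IRF7-deficient macrophages against 21.3 and 18.8 CPM in WT macrophages. Both deficient libraries lay below both WT libraries under either treatment. The log2 fold change was -1.45 ± 0.37 in osteoclasts (SE; 95% confidence interval -2.30 to -0.60, adjusted p = 0.808) and -0.87 ± 0.35 in macrophages (-1.68 to -0.071, adjusted p = 1). Of the 4 group means of the IRF7 experiment, WT macrophages were highest (20.0 ± 1.8 CPM, SD), then WT osteoclasts (16.1 ± 2.9), IRF7-deficient macrophages (10.9 ± 0.65) and IRF7-deficient osteoclasts (5.97 ± 3.7), and no neighbours in that order had overlapping libraries. In the SREBP2 experiment Isg15 had 8.93 and 12.9 CPM in SREBP2ΔM osteoclasts against 14.5 and 18.9 CPM in control osteoclasts, without overlap, at a log2 fold change of -0.62 ± 0.48 (-1.76 to 0.53). In macrophages the groups overlapped, with 14.1 and 16.9 CPM in SREBP2ΔM against 27.8 and 9.72 CPM in control. Without control macrophages replicate 1 the macrophage difference turned from -0.27 to 0.67, so its direction rested on that library.

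Uba7 (ENSMUSG00000032596, chromosome 9, 107975505 to 107984060, plus strand), the E1 enzyme, was lower in deficient osteoclasts of both experiments with narrow intervals. It had 28.3 and 24.4 CPM in IRF7-deficient osteoclasts against 36.8 and 47.6 CPM in WT osteoclasts, and 27.8 and 30.2 CPM in SREBP2ΔM osteoclasts against 39.9 and 43.8 CPM in control osteoclasts. Neither comparison had overlapping libraries. The log2 fold changes were -0.69 ± 0.18 (-1.10 to -0.27, adjusted p = 0.874) and -0.53 ± 0.15 (-0.88 to -0.18, adjusted p = 0.978). In macrophages Uba7 had 29.8 and 31.5 CPM in IRF7-deficient cells against 43.0 and 33.1 CPM in WT cells, and 34.9 and 37.3 CPM in SREBP2ΔM cells against 43.8 and 33.9 CPM in control cells, the last pair overlapping. The annotation has a coding gene on the same strand, Gm20661, that shares 3.48% of the exonic bases of Uba7 and was listed at 0 to 2 counts a library.

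Ube2l6 (ENSMUSG00000027078, chromosome 2, 84798828 to 84810335, plus strand), the E2 enzyme, was the member that rose with RANKL. It had 95.7 and 145 CPM in WT osteoclasts against 44.3 and 51.5 CPM in WT macrophages, a log2 fold change of 1.33 ± 0.21 (0.85 to 1.81, adjusted p = 0.00132). It had 79.3 and 98.4 CPM in IRF7-deficient osteoclasts against 46.7 and 50.1 CPM in IRF7-deficient macrophages, a log2 fold change of 0.88 ± 0.21 (0.40 to 1.36, adjusted p = 0.00927), which lost its call without IRF7-deficient macrophages replicate 1 (adjusted p = 0.0633). The difference between these responses, the interaction, was -0.45 ± 0.29 (-1.13 to 0.22, adjusted p = 1.00). In the SREBP2 experiment the osteoclast values were more spread, at 58.1 and 99.8 CPM in SREBP2ΔM osteoclasts against 47.2 and 49.2 CPM in SREBP2ΔM macrophages, and at 65.7 and 102 CPM in control osteoclasts against 60.3 and 41.8 CPM in control macrophages. The log2 fold changes of 0.71 ± 0.32 and 0.72 ± 0.31 missed the threshold (adjusted p = 0.0935 and 0.0863) and passed it with DESeq2 (adjusted p = 0.0245 and 0.0218). With edgeR both values rested on single libraries. Without osteoclasts replicate 1 of the same genotype they were 1.05 in SREBP2ΔM cells (adjusted p = 0.0247) and 0.99 in control cells (adjusted p = 0.0467), and without osteoclasts replicate 2 they were 0.27 (adjusted p = 0.489) and 0.34 (adjusted p = 0.455). Without control macrophages replicate 2 the value in control cells was 0.48 (adjusted p = 0.342). Between genotypes its libraries overlapped in SREBP2ΔM and control osteoclasts (log2 fold change -0.087 ± 0.31), in osteoclasts of the IRF7 experiment (-0.44 ± 0.20, -0.91 to 0.033) and in both macrophage comparisons. In each of the 4 osteoclast groups Ube2l6 was higher in the library numbered 2, in which the sum of the osteoclast markers was lower, for example 32091 CPM beside 56968 CPM in WT osteoclasts replicate 1. Whether the 2 are related was not tested.

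Herc6 (ENSMUSG00000029798, chromosome 6, 57581000 to 57664632, plus strand), the ligase, was among the less abundant genes and had wide errors. Its levels were 14.7 and 10.1 CPM in SREBP2ΔM osteoclasts against 15.7 and 14.8 CPM in control osteoclasts, and 10.0 and 5.19 CPM in IRF7-deficient osteoclasts against 9.61 and 11.7 CPM in WT osteoclasts. The libraries did not overlap in the first comparison, though the nearest were 14.7 and 14.8 CPM, and overlapped in the second. The log2 fold changes were -0.30 ± 0.30 (-0.98 to 0.39) and -0.49 ± 0.30 (-1.19 to 0.21). In macrophages Herc6 had 10.6 and 9.12 CPM in SREBP2ΔM cells against 17.5 and 9.37 CPM in control cells, and 9.70 and 9.12 CPM in IRF7-deficient cells against 10.3 and 8.77 CPM in WT cells. Here 23.8% of the 50-base words of the longest coding transcript also occur in Gm45193, an overlapping non-coding gene on the same strand, so the counts depend on how such reads were assigned. No gene named Gm45193 was listed in either experiment.

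Trim25 (ENSMUSG00000000275, chromosome 11, 88999376 to 89020293, plus strand), the ligase with a wider range of targets, was nearly level. Its lowest library had 150 CPM (SREBP2ΔM macrophages replicate 1) and its highest 209 CPM (control osteoclasts replicate 1). It had 190 and 185 CPM in SREBP2ΔM osteoclasts against 209 and 199 CPM in control osteoclasts, and 168 and 156 CPM in IRF7-deficient osteoclasts against 182 and 181 CPM in WT osteoclasts. These groups did not overlap, but the log2 fold changes were small, at -0.12 ± 0.12 (-0.39 to 0.14) and -0.16 ± 0.10 (-0.40 to 0.069). A difference in Trim25 of over 0.40 on the log2 scale, in the direction of lower levels, lies outside both intervals.

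Usp18 (ENSMUSG00000030107, chromosome 6, 121245906 to 121270917, plus strand), the protease, had the largest genotype difference of the 6. It had 4.51 and 2.42 CPM in IRF7-deficient osteoclasts against 8.97 and 14.6 CPM in WT osteoclasts, or 3.44-fold lower, at a log2 fold change of -1.78 ± 0.34 (-2.58 to -0.98, adjusted p = 0.616). DESeq2 gave a log2 fold change of -1.78 with an adjusted p of 0.00780 for the same comparison, and over all alternatives the adjusted p ran from 1.21e-07, without a filter on low counts, to 1. In IRF7-deficient macrophages Usp18 had 11.5 and 8.90 CPM against 15.6 and 14.9 CPM in WT macrophages, again without overlap, at a log2 fold change of -0.57 ± 0.31 (-1.29 to 0.15). Usp18 fell with RANKL in IRF7-deficient cells, at a log2 fold change of -1.57 ± 0.35 (adjusted p = 0.00681), and the value in WT cells was -0.36 ± 0.31 (adjusted p = 0.374), where the osteoclast libraries lay below the macrophage libraries too. The interaction was -1.21 ± 0.46 (-2.29 to -0.14, adjusted p = 1.00). In the SREBP2 experiment Usp18 had 9.49 and 11.3 CPM in SREBP2ΔM osteoclasts against 13.8 and 16.5 CPM in control osteoclasts, a log2 fold change of -0.54 ± 0.35 (-1.35 to 0.27). In macrophages it had 13.3 and 15.8 CPM in SREBP2ΔM cells against 23.3 and 10.6 CPM in control cells, which overlapped.

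Counted together, the members lay lower in deficient than in control osteoclasts in both experiments, and none was called by edgeR after adjustment over all genes. The members and the lists below were chosen with earlier results of these data known. The shares of all genes are therefore given for scale and test nothing. In IRF7-deficient against WT osteoclasts 0 of 6 had an adjusted p under 0.05 (0.0185% of all tested genes did). In edgeR 3 had an unadjusted p under 0.05, beside 317 of 10788 genes. DESeq2 called 1 (Usp18) and limma-voom 0. Isg15, Uba7 and Usp18, 3 of 6, were lower at an unadjusted p under 0.05 and over 1.5-fold, against 1.35% of all tested genes. Without each library in turn that count ran from 2 (without WT osteoclasts replicate 2) to 4. Without IRF7-deficient osteoclasts replicate 1, Isg15 passed after adjustment (log2 fold change -2.27, adjusted p = 0.0361), and without replicate 2 of the same group it was -0.92 (adjusted p = 0.874). Both deficient libraries were below both WT libraries for 4 of 6 (Isg15, Uba7, Trim25 and Usp18), against 12.2% of all genes. The median log2 fold change was -0.59 over the 6 genes and 0.0044 over all genes tested, and 6 of 6 were below 0, as were 5239 of 10788 genes. Macrophage markers, 8 genes, summed to 6172 to 6951 CPM in IRF7-deficient osteoclasts against 7313 to 7975 CPM in WT osteoclasts, and 6 of the 8 had log2 fold changes below 0, with a median of -0.45, 2 at an unadjusted p under 0.05 and 0 called. All 10 osteoclast markers had log2 fold changes above 0, with a median of 0.21 and 0 called. The part of these in the members' values was not tested.

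In SREBP2ΔM against control osteoclasts, 0 of 6 had an adjusted p under 0.05 in edgeR (0.0372% of all genes), and DESeq2 and limma-voom also called 0. Of the 6, Uba7 alone had an unadjusted p under 0.05 (390 of 10764 genes did). By p and the fold of 1.5 together the count was 0 of 6 (1.3% of all genes were lower by that rule). The last count was 1 (Uba7) without SREBP2ΔM osteoclasts replicate 2 or without control osteoclasts replicate 1, and 1 (Isg15) without a filter on low counts or with only these 2 groups fitted. All members but Ube2l6, 5 of 6, had both deficient libraries below both control libraries, against 15.4% of all genes. The median log2 fold change was -0.41 over the members and 0.0094 over all genes, with 6 of 6 below 0, as were 5098 of 10764 genes. The macrophage markers summed to 5626 to 5684 CPM in SREBP2ΔM osteoclasts against 6073 to 6375 CPM in control osteoclasts, and 7 of the 8 had log2 fold changes below 0, with a median of -0.44, 2 lower by p and fold and 0 called. The 10 osteoclast markers had a median log2 fold change of 0.0035. Their part was not tested either.

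In macrophages the median log2 fold change of the members was -0.18 in the IRF7 experiment and -0.16 in the SREBP2 experiment, against 7.5e-05 and -0.00080 over all genes. In IRF7-deficient against WT macrophages 0 of 6 were called after adjustment (0.0185% of all genes), and 0 by DESeq2 and by limma-voom. In edgeR 1 had an unadjusted p under 0.05, beside 141 of 10788 genes. By p and fold 1 of 6 (Isg15) was lower (0.167%), which did not hold when any 1 of the 4 macrophage libraries was left out. Again Isg15, Uba7, Trim25 and Usp18, 4 of 6, did not overlap (14.2%). In SREBP2ΔM against control macrophages 0 of 6 were called (0.0557%), and 0 by DESeq2 and by limma-voom. At an unadjusted p under 0.05 the count was 0, beside 142 of 10764 genes. By p and fold 0 were lower (0.548%), and 0 did not overlap (10.5%). Without control macrophages replicate 2, 3 members (Isg15, Herc6 and Usp18) were lower by p and fold. Markers of neutrophils, 9 genes, summed to 65.3 to 154 CPM in SREBP2ΔM macrophages against 242 to 261 CPM in control macrophages, and to 374 to 1170 CPM in IRF7-deficient macrophages against 294 to 601 CPM in WT macrophages. Their part in the macrophage values was not tested. For the interaction of genotype with RANKL, 0 of 6 were called in either experiment (0% of all genes in each). The count at an unadjusted p under 0.05 was 1 (Usp18) in the IRF7 experiment, beside 121 of 10788 genes. It was 0 in the SREBP2 experiment, beside 119 of 10764 genes. DESeq2 and limma-voom called 0 in both. So a difference between osteoclasts and macrophages in the effect of either deletion was not shown for any member.

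**Figure D2:**
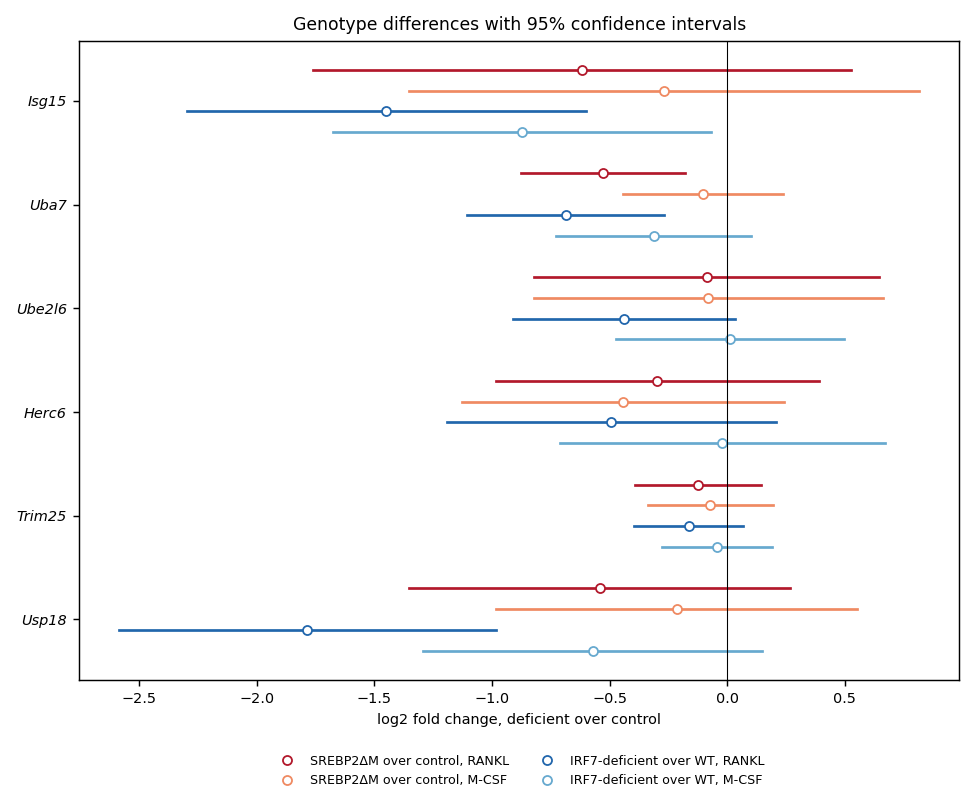
Log2 fold change of deficient over control cells for each gene, with 95% confidence intervals, in osteoclasts (RANKL) and macrophages (M-CSF) of both experiments; open points have an adjusted p of 0.05 or above, which holds for all of them. The intervals of Isg15, Uba7 and Usp18 in IRF7-deficient osteoclasts and of Uba7 in SREBP2ΔM osteoclasts lie wholly below 0, as does that of Isg15 in IRF7-deficient macrophages.

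With RANKL, 0 to 2 of the 6 genes were called, depending on the genotype. In IRF7-deficient cells 2 of 6 were called, Ube2l6 higher and Usp18 lower, where 49.3% of all genes were called. In WT cells 1 of 6, Ube2l6, was called, against 47.4% of all genes. In SREBP2ΔM and in LysM-Cre control cells 0 of 6 were called in edgeR, against 56.2% and 57.7% of all genes. At an unadjusted p under 0.05 there were 0 in both, beside 6606 and 6719 of 10764 genes. DESeq2 called Ube2l6 in both and limma-voom 0. Without LysM-Cre control macrophages replicate 2, Usp18 was called in control cells (log2 fold change -0.62, adjusted p = 0.0469). Without IRF7-deficient osteoclasts replicate 1 the count in IRF7-deficient cells was 4, adding Isg15 and Herc6. Isg15 was lower in osteoclasts than in macrophages, without overlap, of IRF7-deficient cells (-0.88 ± 0.37, adjusted p = 0.0847), WT cells (-0.30 ± 0.34, adjusted p = 0.490) and SREBP2ΔM cells (-0.51 ± 0.49, adjusted p = 0.410), and did not pass. The share of all genes without overlap between osteoclasts and macrophages was not counted, here or for other genes compared with RANKL. The value of -0.88 was -1.69 without IRF7-deficient osteoclasts replicate 1 (adjusted p = 0.00174) and -0.35 without replicate 2 (adjusted p = 0.259). In bulk samples fewer cells of a type and less RNA per cell cannot be told apart. With RANKL the neutrophil markers summed to 4.51 to 18.9 CPM against 65.3 to 1170 CPM in macrophages, and in the IRF7 experiment the macrophage markers summed to 6172 to 7975 CPM against 26098 to 35963 CPM. In the SREBP2 experiment the macrophage markers summed to 5626 to 6375 CPM against 5924 to 6548 CPM. Their median log2 fold change with RANKL was -2.91 in IRF7-deficient, -2.44 in WT, -0.98 in SREBP2ΔM and -0.55 in LysM-Cre control cells. The part of these in the members' values was not tested.

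**Figure D3:**
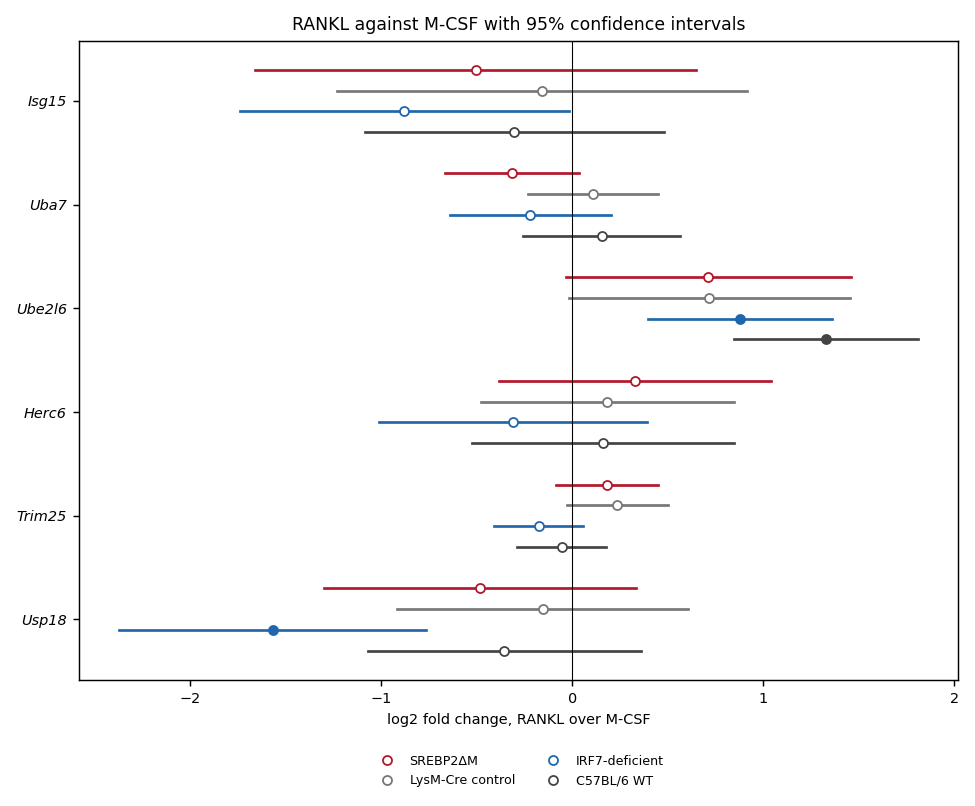
Log2 fold change of osteoclasts (RANKL) over macrophages (M-CSF) for each gene in the 4 genotypes, with 95% confidence intervals; filled points have an adjusted p under 0.05. Filled points are Ube2l6 in WT (1.33) and IRF7-deficient cells (0.88) and Usp18 in IRF7-deficient cells (-1.57).

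Of 9 genes of the type I interferon receptor, its kinases, ISGF3 and its regulators, 5 fell and 0 rose with RANKL in IRF7-deficient cells, 4 and 0 in WT cells, 4 and 0 in SREBP2ΔM cells, and 2 and 1 in LysM-Cre control cells, beside 49.3%, 47.4%, 56.2% and 57.7% of all genes called in either direction in these 4 genotypes. Irf9, the DNA-binding part of ISGF3, fell in all 4 genotypes, at log2 fold changes between -1.53 and -0.74, and so did Ifnar2, the receptor chain to which USP18 binds, between -1.17 and -0.32. Stat2 had the largest fall of the 9 in IRF7-deficient and WT cells (-1.74 and -1.48). With RANKL, Irf7 went from 115 and 44.9 CPM to 144 and 125 CPM in LysM-Cre control cells. In WT cells Irf7 went from 81.0 and 61.7 CPM to 55.2 and 43.4 CPM. Between genotypes of osteoclasts, 3 of the 9 were lower by p and fold in IRF7-deficient cells, against 1.35% of all tested genes. They were Irf9, Stat2 and the deleted Irf7, of which only Irf7 passed after adjustment (adjusted p = 0.0196). In SREBP2ΔM osteoclasts 2 of the 9, Stat2 and Irf7, were lower by p and fold, against 1.3% of all tested genes. None passed after adjustment. Stat2 had 27.7 and 16.9 CPM in IRF7-deficient osteoclasts against 36.4 and 36.5 CPM in WT osteoclasts (log2 fold change -0.71 ± 0.23), and 39.1 and 39.1 CPM in SREBP2ΔM osteoclasts against 56.7 and 61.0 CPM in control osteoclasts (-0.59 ± 0.25, adjusted p = 1.00). Irf9 had 25.0 and 16.5 CPM in IRF7-deficient osteoclasts against 33.7 and 38.2 CPM in WT osteoclasts (-0.80 ± 0.19, adjusted p = 0.770). Irf7, at 62.5 and 70.2 CPM in SREBP2ΔM osteoclasts against 144 and 125 CPM in control osteoclasts, had a log2 fold change of -1.02 ± 0.42 (adjusted p = 1.00). The median over the 9 genes was -0.16 in the IRF7 and -0.17 in the SREBP2 comparison of osteoclasts.

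Of 8 genes whose proteins are known to take ISG15 or to work with TRIM25, 3 were lower by p and fold in IRF7-deficient osteoclasts. The share of all tested genes was 1.35%, and none of the 8 passed after adjustment. Ifit1, an antiviral RNA-binding protein, had 5.62 and 3.46 CPM in IRF7-deficient osteoclasts against 12.8 and 17.6 CPM in WT osteoclasts (-1.75 ± 0.41, adjusted p = 0.770). Mx1, an antiviral GTPase, and Ifih1, the RNA sensor MDA5, had log2 fold changes of -1.33 ± 0.42 and -0.73 ± 0.24. In SREBP2ΔM osteoclasts 0 of the 8 were lower by p and fold and 6 of 8 had a fold change below 0, with a median of -0.38, beside -0.52 in IRF7-deficient osteoclasts. With RANKL, Mx1 was called lower in 3 of the 4 genotypes. In LysM-Cre control cells it was not called, with 6.16 and 4.17 CPM in osteoclasts against 14.2 and 5.61 CPM in macrophages.

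Of 10 relatives in the ubiquitin pathway 9 were tested. Between genotypes of osteoclasts 0 of them had an unadjusted p under 0.05 in either experiment. Of all genes 317 of 10788 did in the IRF7 and 390 of 10764 in the SREBP2 comparison, so 0 of 9 does not set these relatives apart. Their median log2 fold changes were 0.080 in the IRF7 and 0.041 in the SREBP2 comparison. Uba1, the ubiquitin E1 and relative of Uba7, had 331 and 350 CPM in SREBP2ΔM osteoclasts against 324 and 337 CPM in control osteoclasts, and fell with RANKL in all 4 genotypes, at log2 fold changes between -0.54 and -0.47. Ube2l3, the ubiquitin E2 closest to Ube2l6, did not pass in any RANKL comparison. Herc4, a relative of Herc6, was higher in osteoclasts than in macrophages of all 4 genotypes, without overlap. In WT cells it had 65.0 and 69.8 CPM in osteoclasts against 48.1 and 43.0 CPM in macrophages. Of 11 further genes linked to ISG15, 10 were tested. Itgal, the alpha L chain of the integrin LFA-1 that is known as a receptor of secreted ISG15, had 106 and 87.8 CPM in SREBP2ΔM osteoclasts against 153 and 136 CPM in control osteoclasts (-0.57 ± 0.13, adjusted p = 0.500), 34.6 and 28.1 CPM in IRF7-deficient osteoclasts against 52.5 and 44.3 CPM in WT osteoclasts (-0.62 ± 0.28, adjusted p = 1). Itgal fell with RANKL in all 4 genotypes, at log2 fold changes between -2.53 and -1.23. Arih1, a ligase known to attach ISG15 to some targets, rose with RANKL in all 4 genotypes by 0.34 to 0.62.

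The members did not share a single pattern over the libraries. Likeness was measured as the root mean square difference of log2 CPM over the 16 libraries, after each gene was centred on its mean within its experiment, among 10598 genes tested in both. Among all these genes the one most like Isg15 was Usp18, at 0.214, and Isg15 was second to Rtp4 (0.165), an interferon-stimulated chaperone of receptors, for Usp18. Outside the members, the genes nearest to Isg15 were Oas1g (0.218), Oas3 (0.237) and Phf11d (0.273), of which the first pair encode oligoadenylate synthetases of the antiviral response. Nearest to Usp18 after Rtp4 were Phf11d (0.223) and Oas3 (0.230). Isg15, Usp18, Oas1g and Rtp4 moved together in the pair of libraries described above as apart. Relative to their means they lay at -1.75, -1.79, -2.02 and -1.81 in IRF7-deficient osteoclasts replicate 2. In LysM-Cre control macrophages replicate 1 they lay at 0.92, 0.75, 0.94 and 0.86. Likeness without this pair was not computed. Nearest to Herc6 were Epsti1 (0.158), Parp9 (0.172) and Samhd1 (0.193), all known as interferon-stimulated genes. Uba7 had Tapbp (0.168) and Tap1 (0.170) as its nearest genes, which take part in presenting peptides on MHC class I, and then Arhgef3 (0.171). Ube2l6 had Gpr157 (0.205), an orphan receptor, Traf2 (0.213), an adaptor of TNF receptors, and Pja1 (0.215), a ubiquitin ligase, as its nearest genes. In the order of likeness to Ube2l6 the closest member, Trim25, came at rank 3781. Trim25, which varied by 0.117 around its means, had Zfp740 (0.0514), Kdm6a (0.0681) and Tmod3 (0.0771) nearest, and a gene so level is close to any other level gene. These are descriptions over libraries that share treatments and differ in depth, not tests.

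**Figure D4:**
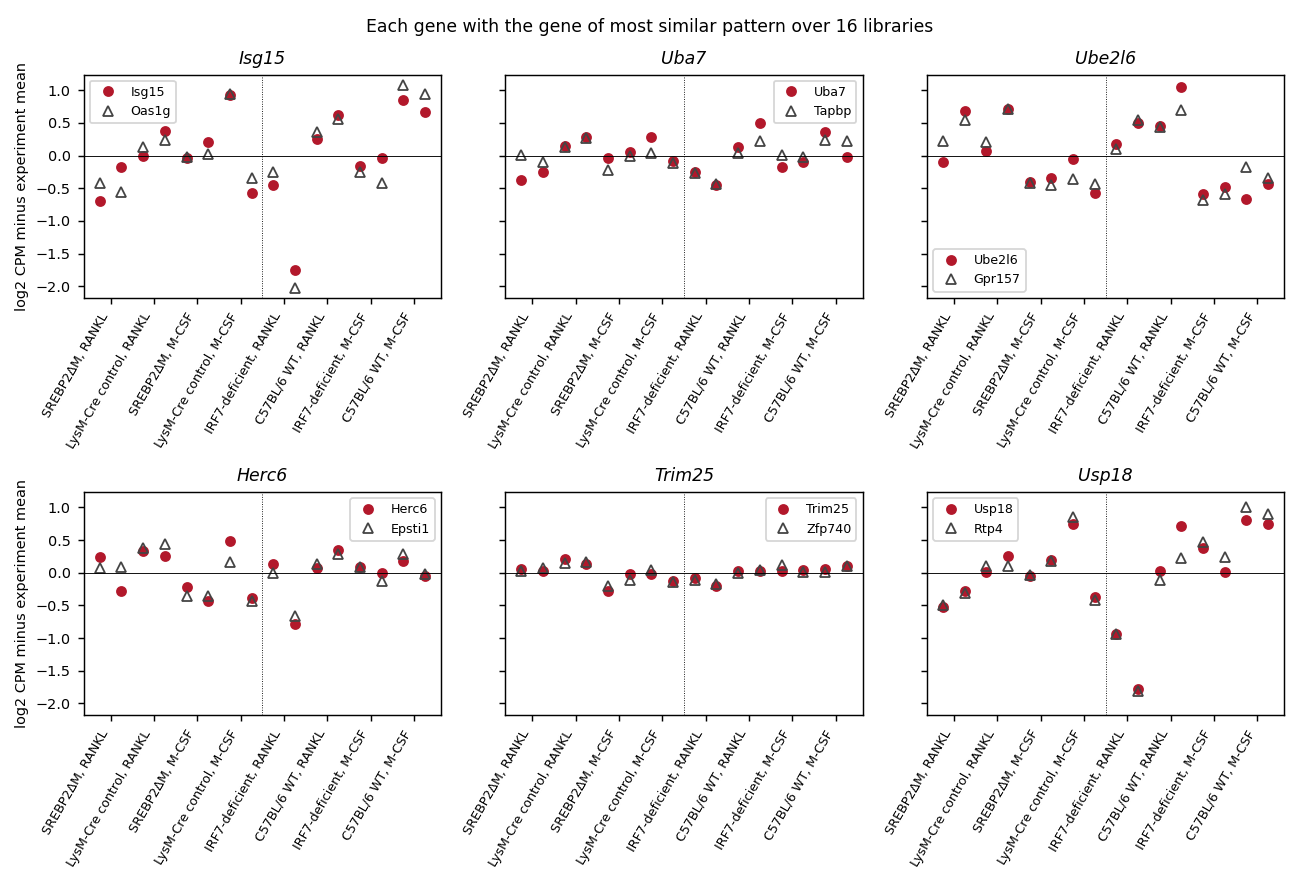
Log2 CPM minus the gene's mean within its experiment for each member (filled circles) and the gene of most similar pattern outside the members (open triangles) in the 16 libraries, 2 per group. Isg15 with Oas1g and Usp18 with Rtp4 reach their lowest values in IRF7-deficient osteoclasts replicate 2, and in the IRF7 experiment Ube2l6 with Gpr157 lies above 0 in all osteoclasts and below 0 in all macrophages.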

How the data were processed

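mRNA-seq of 16 libraries was analysed in 2 tables, 1 per experiment. The counts deposited by the authors are whole, unnormalized reads per gene, and the submitters' processing notes name STAR 2.7.3a, fastp and bcl2fastq 1.8.4, with mm10 as the build. How reads were assigned to genes (tool, strand setting, annotation) is not stated in these sources. The deposited log2 CPM were not used. Each experiment was fitted alone in edgeR 4.0.16 (R 4.3.3) with TMM and robust quasi-likelihood dispersions, with 4 groups sharing a spread, over the genes the authors kept. Adjusted p are Benjamini-Hochberg over all of them, and the threshold was 0.05. SE is the log2 fold change over the root of F. Likeness of patterns used log2 CPM with a prior count of 2. Exonic lengths, over the merged exons of all transcripts of a gene, and shared 50-base words came from GENCODE M21. Its gene coordinates equal those of the files for all 6 members. Steps were tested on simulated data. Alternatives were DESeq2 1.42.0 (size factors, Wald test), limma-voom (3.58.1), other filters, fewer groups, a replicate block and leaving out each library. Members are named whatever their values, the other genes by smallest p within lists or nearest pattern, and in the RANKL comparisons also genes called in most genotypes, chosen after their values were seen. Members and lists were chosen with earlier results of these data known.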

Additional observations from a re-analysis of the deposited data

Results flagged for a closer look

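Trim25 is named here because its RANKL response had opposite signs in the 2 experiments, with no overlap of libraries. This rule was applied to the 6 members only, and the share of all genes that meet it was not counted. The log2 fold change of osteoclasts over macrophages was 0.18 in SREBP2ΔM cells and 0.24 in LysM-Cre control cells, where both osteoclast libraries lay above both macrophage libraries, and -0.18 in IRF7-deficient cells and -0.055 in C57BL/6 WT cells, where both lay below. None of the 4 passed its own test, and the difference was not tested, because the experiments are separate tables in which strain and experiment cannot be told apart. Groups of 2 libraries were too small to test for a library that stands apart.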

How the results depend on the processing

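With 2 libraries per group the calls on members depended on the tool and on single libraries. With DESeq2, 1 member was called in SREBP2ΔM and 1 in LysM-Cre control cells under RANKL, and 1 between IRF7-deficient and WT osteoclasts. Without a filter on low counts, 1, 1 and 3 members were called in the same comparisons and 1 between IRF7-deficient and WT macrophages. The cause was not tested. Leaving out each library in turn gave 0 to 1 members called for RANKL in SREBP2ΔM cells, 0 to 1 in LysM-Cre control cells, 1 to 4 in IRF7-deficient cells, and 0 to 1 between IRF7-deficient and WT osteoclasts. The count of all genes called between genotypes moved more. Between IRF7-deficient and WT osteoclasts it was 2, with 22 in DESeq2, 95 without a filter, 0 in limma-voom, 0 with only the 2 groups and 0 to 11 without each library. For SREBP2ΔM and control osteoclasts it was 4, with 28 in DESeq2, 132 without a filter, 2 with only the 2 groups and 3 to 9 without each library. In macrophages it was 2 in the IRF7 experiment (DESeq2 4, limma-voom 1, no filter 58, without a library 0 to 1) and 6 in the SREBP2 experiment (DESeq2 20, no filter 67, only the 2 groups 13, without a library 2 to 3). For the interactions it was 0, with 11 in the IRF7 and 2 in the SREBP2 experiment without a filter.

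Of the fold changes of single members under alternatives, 647 kept direction and side of the threshold, 16 gained and 1 lost a call, and 32 turned sign, all of values that had not passed. Limma-voom turned Isg15 under RANKL in LysM-Cre control cells to 0.047. Without each library in turn, the log2 fold change in LysM-Cre control cells under RANKL ranged from -0.73 to 0.78 for Isg15, -0.62 to 0.52 for Usp18, -0.065 to 0.31 for Uba7 and -0.20 to 0.70 for Herc6. Between SREBP2ΔM and control macrophages it ranged from -0.84 to 0.67 for Isg15, -0.68 to 0.46 for Usp18, -0.28 to 0.094 for Uba7, -0.32 to 0.21 for Ube2l6, -0.83 to 0.072 for Herc6 and -0.21 to 0.052 for Trim25, and in osteoclasts from -0.53 to 0.28 for Ube2l6. For the SREBP2 interaction it ranged from -1.29 to 0.22 for Isg15, -1.0 to 0.14 for Usp18, -0.45 to 0.37 for Ube2l6, -0.37 to 0.53 for Herc6 and -0.18 to 0.084 for Trim25. In the IRF7 experiment it ranged from -0.86 to 0.091 for Herc6 under RANKL in deficient cells, -0.050 to 0.36 for Uba7 in WT cells, and -0.091 to 0.13 for Ube2l6 and -0.13 to 0.10 for Herc6 between macrophages.

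Groups share replicate numbers, but nothing in the labels pairs the libraries. Between groups, the correlation over genes of the differences between replicates 1 and 2 was 0.68 and 0.72 for the genotypes of osteoclasts, 0.21 and 0.47 for those of macrophages, and 0.057 to 0.33 otherwise. With the replicate block no count of called members changed, and the interaction of Ube2l6 in the SREBP2 experiment turned to 0.013. The lowest library held 28 counts of Usp18 and 39 of Isg15, and what this depth limits was not tested.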
